A study of Rattus norvegicus with 24 samples.

Results

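Aged rats that learn poorly were compared with young adult rats in CA1, a field of pyramidal neurons in the hippocampus that is needed for spatial learning. The comparison took every array whose title names an aged impaired or a young CA1 sample. This gave 8 aged impaired and 9 young arrays, 17 of the 23 arrays with values, and 9046 genes were tested across them. All rats were male Long-Evans rats that were housed singly and given no treatment. The young rats were 6 months old and the aged impaired rats 24 to 26 months old. Spatial learning was scored in the Morris water maze, where rats swim to find a submerged platform. An aged rat was called impaired when its learning index was worse than the range of the young rats. The other 6 arrays came from aged rats of the same ages whose index lay within that range, called aged unimpaired. Young and aged impaired rats differ in both age and learning, and from these 2 groups alone the 2 cannot be told apart.

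CA1 tissue holds pyramidal neurons and interneurons together with astrocytes, oligodendrocytes, microglia and vessels, and RNA from all of them is read as 1 mixture. Microglia are the resident phagocytes of the brain, and they take up debris, present antigen, bear Fc receptors and make complement, the protein cascade that tags cells and synapses for removal. Astrocytes feed and buffer neurons and turn on intermediate filament genes when they become reactive. In bulk tissue, more or fewer cells of a type and more or less RNA per cell cannot be told apart.

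CA1 was microdissected, and its total RNA was hybridised to Affymetrix Rat Genome 230 2.0 arrays, with 1 array per biological replicate by the labels. Values are log2 signals, so a difference of 1 is a doubling, and a signal near 4 or less is treated here as dim. Over all probe sets, median signals per array were 4.21 to 4.28, and over the tested genes 8.31 to 8.57. RNA breakdown, read from how far 3 prime exceed 5 prime controls, averaged 1.35 ± 0.12 (SD, n = 8) in impaired and 1.37 ± 0.11 (SD, n = 9) in young arrays (2-sided exact permutation p = 0.783). The median correlation of an array with the other arrays across genes ranged from 0.989 to 0.993 and did not separate the groups (exact permutation p = 0.471). Pyramidal and CA1 marker genes read high in all 17 arrays, Wfs1 at 10.83 to 11.69 and Fibcd1 at 10.49 to 11.21, while the dentate marker Dsp reached at most 3.02 and the meningeal markers Col1a1 and Slc6a13 at most 3.37 and 2.69. The meningeal genes Igf2 and Dcn were measured, at 6.67 to 8.40 and 7.27 to 8.86. The dentate factor Prox1 was measured, at 6.83 to 8.58, and did not differ by the test. The CA3 marker Bok was bright, at 9.01 to 9.61 in young and 8.89 to 9.67 in impaired arrays. Grik4 and Nectin3, also of CA3, reached at most 6.31 and 5.87. The thalamic marker Slc17a6 read 7.20 to 8.10 in young and 6.39 to 7.73 in impaired arrays, and Tcf7l2 and Prkcd reached at most 6.41 and 7.38. None of these CA3 and thalamic markers differed by the test. Of the choroid plexus markers, Folr1, Kl and Kcnj13 reached at most 2.33, but Ttr spanned 5.69 to 9.50 in young and 6.30 to 9.50 in impaired arrays. The microglial marker Cx3cr1 lay near the dim limit in every array, at 3.12 to 4.52.

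Aged impaired CA1 differed from young CA1 mostly by rises. At a Benjamini-Hochberg adjusted p under 0.05 in limma, 199 genes were higher in impaired arrays, 2.20% of the genes tested, and 35 were lower, 0.387% of them, together 2.59%. Rises made up 85% of these calls. Genes were tested if their signal was over 4 in at least 6 of the 17 arrays. Of the higher genes, 6 were over 4 in fewer than 6 young arrays, so they passed this filter only with impaired arrays counted. The reverse held for 0 of the lower genes. When each array was centred on its own median, the counts were 203 higher and 85 lower, and 70.5% of calls were rises. Most changes were small, with a median size of 0.37 on the log2 scale, or 1.30-fold, among the called genes. Of the called genes, 12 rose and 2 fell by more than 2-fold. The impaired and young arrays did not overlap at all in 45 genes, 0.497% of those tested, with 41 higher (0.453%) and 4 lower (0.0442%) in all impaired arrays. Leaving out 1 array at a time gave 123 to 262 higher and 18 to 47 lower genes. The higher count fell to 126 without aged impaired replicate 5 and to 123 without replicate 6. It rose to 262 without aged impaired replicate 8. The lower count fell to between 18 and 23 without any 1 of young replicates 2, 3, 8 and 9 or aged impaired replicates 1 to 6. In all 17 of these fits 112 of the higher and 12 of the lower genes kept their call.

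**Figure D1:**
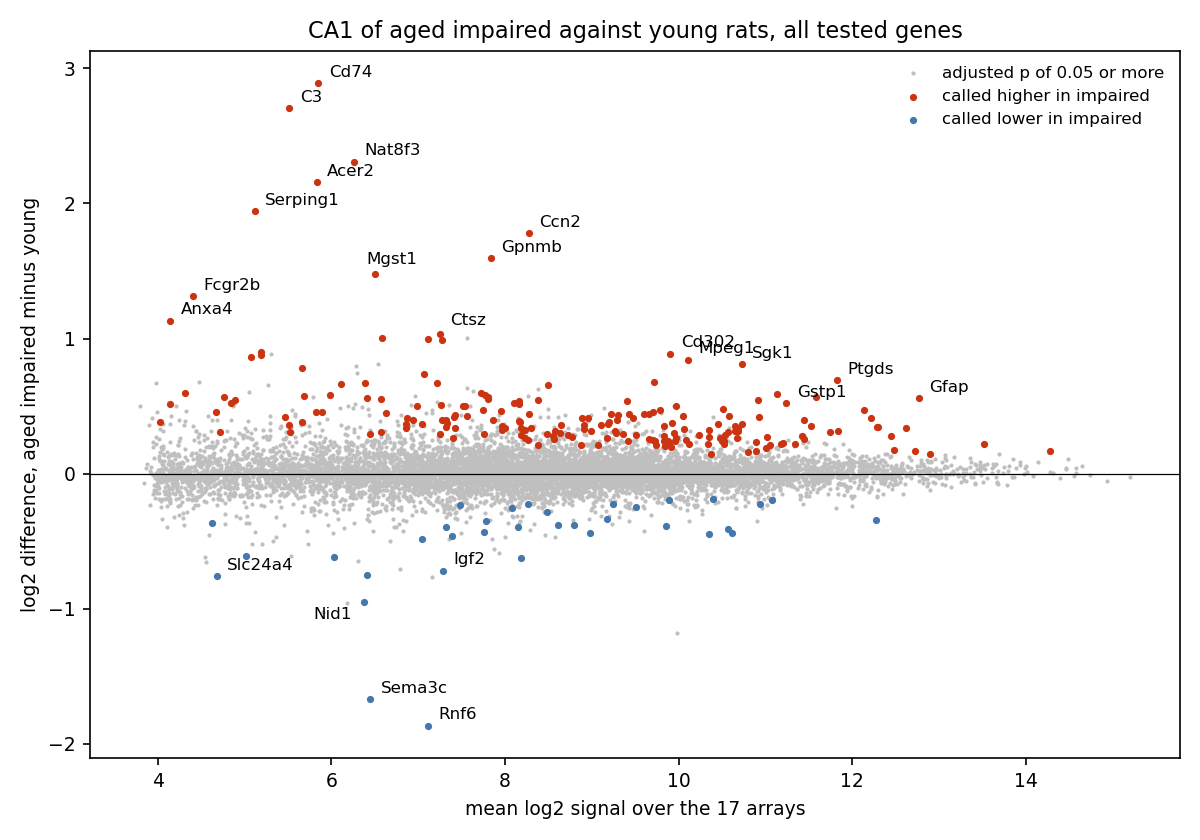
Difference in log2 signal between aged impaired and young arrays (y axis) against mean log2 signal over the 17 arrays (x axis), 1 point per tested gene. Grey points did not pass the test, red points are the 199 genes called higher and blue points the 35 called lower, and the named points are led by Cd74 at 2.89 above and Rnf6 at -1.87.

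Some arrays stood apart. In aged impaired replicate 1, 103 of the 199 higher genes lay above every young array, the fewest of the 8 impaired arrays, and replicate 8 came next with 126, whereas the other impaired arrays had 157 to 186. The deposited columns place young replicate 9 between aged unimpaired replicates 5 and 7, and no unimpaired array has the number 6. It was kept as young, as labelled. Without it 168 genes were higher and 22 lower. Without aged impaired replicate 1 and young replicate 9 together, 174 genes were higher and 15 lower.

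The largest rises were those of Cd74 and C3. Cd74, the invariant chain that escorts MHC class II molecules, read 3.88 to 5.15 (median 4.32) in young arrays and 4.79 to 8.60 (median 7.31) in impaired arrays. All impaired arrays but replicate 1, at 4.79, lay above every young array. The rise was 2.89 ± 0.40 (SE), or 7.42-fold (limma, Benjamini-Hochberg adjusted p = 0.000698). C3, the central complement protein, read 2.82 to 5.53 (median 4.06) in young arrays and 4.88 to 7.66 (median 7.17) in impaired arrays. Replicate 1 was again the one impaired array within the young range. C3 rose by 2.70 ± 0.38, or 6.51-fold (limma, adjusted p = 0.000698). Serping1, the inhibitor of the first complement proteases, read 2.88 to 5.19 (median 4.19) in young arrays and 4.27 to 7.96 (median 5.95) in impaired arrays. It rose by 1.94 ± 0.42, or 3.84-fold (limma, adjusted p = 0.0183), with 7 of 8 impaired arrays above all young arrays.

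Of 5 tested complement components 3 rose, C3, C1qa and C1s, where 2.20% of all genes were called higher. The members of this and every later gene list were chosen with earlier results of these data known. The shares of list members called are therefore descriptions and not tests. C1qa, a chain of the C1q recognition molecule, went from 9.32 to 9.96 (median 9.69) in young arrays to 9.86 to 10.53 (median 10.21) in impaired arrays, a rise of 0.50 ± 0.10 (limma, adjusted p = 0.00862). Only replicate 1 overlapped the young arrays. C1s, a protease of the same complex, rose by 0.88 ± 0.21, but its call was lost in 9 of the 17 fits that left out an array (adjusted p up to 0.0646). The median difference of the 5 components was 0.50, against 0.0079 over all genes tested. Complement regulators gave 3 rises among 4 tested genes, 75% against the same 2.20%, namely Serping1, Cd59b and Clu, with Cd59b at 0.23 ± 0.06 and Clu at 0.22 ± 0.05. Leaving out 1 array gave 1 to 3 rises, with 1 left without young replicate 2, 4 or 8 or aged impaired replicate 3, 4 or 6. Clu was not called when arrays were centred or quantile normalized, and it and Cd59b each lost their call in 10 of the 17 fits with an array left out.

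Among 7 tested genes of MHC class II presentation, Cd74 and the proteases Ctss and Lgmn, which trim antigens and the invariant chain, rose. These 3 were 42.9% of the list, against 2.20% of all genes called higher. RT1-Db1, a class II beta chain, stood at a difference of -0.13 and the peptide loaders RT1-DMa and RT1-DMb at 0.03 and -0.06, and none of them passed the test. The median of the 7 was 0.083. Of 13 class I genes, B2m, which pairs with every class I heavy chain, rose by 0.35 ± 0.06 and the proteasome activator Psme1 by 0.27 ± 0.07. B2m kept its call in every fit with an array left out, and Psme1 lost it in 11. Psme1 was also the only call among 10 interferon response genes, 10% of them. None of 12 cytokine and NF-kB genes passed, the nearest being Tnfrsf1a, a tumour necrosis factor receptor, at 0.22 ± 0.06 (limma, adjusted p = 0.0774). Of 3 tested lymphocyte genes none passed, and Zap70, Cd2 and Cd3e differed by 0.13, -0.07 and -0.06. Cd3e read 6.27 to 7.25 over the 17 arrays, whereas Cd3d and Cd79b, lymphocyte markers too dim to test, reached at most 2.25.

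**Figure D2:**
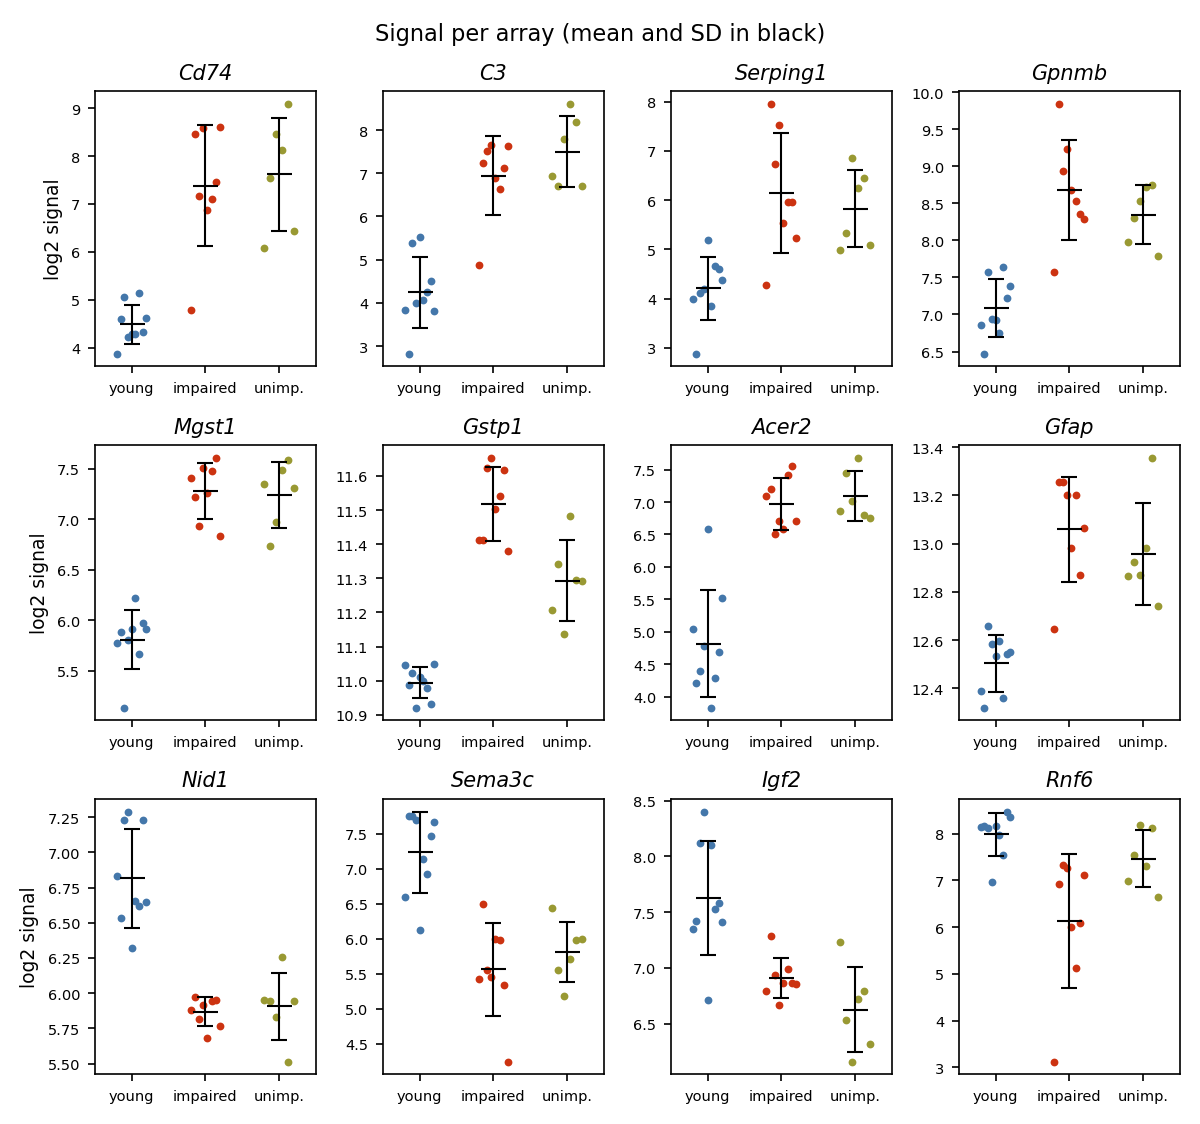
Log2 signal (y axis) of 12 genes in each young, aged impaired and aged unimpaired array (x axis), with 1 coloured point per array and the group mean ± SD in black. The impaired arrays lie above all young arrays for Mgst1 and Gstp1 and below all of them for Nid1, and aged impaired replicate 1, the leftmost red point, falls among the young arrays for Cd74, C3 and Serping1.

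Microglial genes were often among the rises. Of 18 tested microglia and macrophage markers 9 rose and none fell, 50% against 2.20% of all genes called higher, and all 18 differences were positive, with a median of 0.35. When arrays were centred, 17 of the 18 were positive. Fcer1g, the signalling chain shared by several Fc receptors, read 9.03 to 9.69 (median 9.37) in young arrays and 9.83 to 10.31 (median 10.12) in impaired arrays, and the groups did not overlap. It rose by 0.68 ± 0.09, or 1.60-fold (limma, adjusted p = 0.000572). Fcgr2b, the inhibitory Fc receptor for IgG, was dim in young arrays, at 3.34 to 4.19 (median 3.87), and reached 4.22 to 5.77 (median 5.20) in impaired arrays. Its groups did not overlap either, and its rise was 1.32 ± 0.18 (limma, adjusted p = 0.000698). Fcgr2b passed the signal filter only with impaired arrays counted. Cd53, a leukocyte tetraspanin, rose by 0.74 ± 0.13, and all impaired arrays, at 7.14 to 7.79, lay above the young arrays, at 5.81 to 7.10. Tyrobp, the adaptor through which Trem2 signals, rose by 0.57 ± 0.12, and Trem2 itself by 0.40. The identity markers Csf1r, P2ry12 and Tmem119 differed by 0.30, 0.29 and 0.02, and none of them passed the test.

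The summed linear signal of the 18 microglial markers, which includes the called genes themselves, was 7904 to 10040 in young arrays and 10530 to 13150 in impaired arrays, without overlap. Ctss is the brightest of them, and without it the sums were 3771 to 5214 and 5330 to 6812, also without overlap. The 9 markers that were not called summed to 2114 to 2793 in young and 2539 to 3205 in impaired arrays, which overlapped. The same sum for 29 astrocyte markers was 144000 to 162300 in young and 151100 to 174500 in impaired arrays, and for 28 oligodendrocyte and myelin genes 77900 to 92880 and 84170 to 103500. What these shifts contribute to the change of any single gene was not tested.

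Genes of phagocytosis gave 10 rises among 17 tested members, 58.8% against 2.20% of all genes, with no fall and a median of 0.22. Many of them are also in the microglial and lysosomal lists, since 7 of the 10 belong to another list. Gpnmb, a glycoprotein of phagocytes that have taken up lipid, read 6.47 to 7.64 (median 6.94) in young arrays and 7.58 to 9.85 (median 8.60) in impaired arrays. Replicate 1, at 7.58, was the only impaired array within the young range, and the rise was 1.59 ± 0.24, or 3.02-fold (limma, adjusted p = 0.00118). Colec12, a scavenger receptor, rose by 1.0 ± 0.26, but this call was lost in 12 of the 17 fits with an array left out (adjusted p up to 0.0947). Apoe, the lipid carrier of astrocytes and reactive microglia, differed by 0.09 and did not pass (limma, adjusted p = 0.226), and its dimmer probe set gave -0.03.

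All 32 tested genes of the lysosomal hydrolase list had a positive difference, also with centred or quantile normalized arrays, and the median was 0.21. The list also holds Npc2, which is a cholesterol carrier and not a hydrolase. The test passed 11 genes of the list, 34.4% against 2.20% of all genes, and none fell. Ctsz, a lysosomal carboxypeptidase, read 6.13 to 7.38 (median 6.93) in young arrays and 7.39 to 8.24 (median 7.82) in impaired arrays. The groups did not overlap, though by a narrow margin, and the rise was 1.04 ± 0.16, or 2.05-fold (limma, adjusted p = 0.00118). Npc2, which hands cholesterol out of the lysosome, read 10.51 to 11.08 (median 10.89) in young and 11.12 to 11.61 (median 11.45) in impaired arrays, a rise of 0.59 ± 0.08 without overlap (limma, adjusted p = 0.000536). Ctsd, the main aspartic protease of the lysosome, rose by 0.43 ± 0.07, and Ctss, the cysteine protease of microglia, by 0.34 ± 0.06. Ppt1, the thioesterase that strips palmitate from proteins, rose by 0.29 ± 0.06. Lamp2, the membrane protein needed for fusion with autophagosomes, and Cd63 were the 2 that rose among 31, 6.45% against 2.20% of all genes. The median of that list was 0.034. Lamp2 read 11.27 to 11.44 (median 11.34) in young and 11.55 to 11.87 (median 11.73) in impaired arrays, a rise of 0.35 ± 0.04 without overlap (limma, adjusted p = 0.000468). Its second probe set differed by 0.12 and did not pass (limma over 16135 probe sets, adjusted p = 0.569).

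Glutathione transferases, which join glutathione to reactive compounds, held the 2 smallest p-values of the comparison. Gstp1, the pi class enzyme, read 10.92 to 11.05 (median 11) in young arrays and 11.38 to 11.65 (median 11.52) in impaired arrays. The young arrays spanned a far narrower range than the distance between the groups, and the rise was 0.52 ± 0.04, or 1.44-fold (limma, adjusted p = 5.05e-06). Mgst1, a membrane-bound enzyme of the endoplasmic reticulum and mitochondria, read 5.13 to 6.22 (median 5.88) in young and 6.83 to 7.61 (median 7.33) in impaired arrays. It rose by 1.47 ± 0.13, or 2.78-fold (limma, adjusted p = 5.14e-06), again without overlap. Gsta1, an alpha class enzyme, rose by 0.56 ± 0.08, with young arrays at 11 to 11.53 and impaired arrays at 11.72 to 12.14. The other 9 tested transferases did not pass, and the median of the 12 was 0.20. The calls were 25% of the list, against 2.20% of all genes called higher. Pir, or pirin, an iron-binding nuclear protein, read 6.51 to 6.97 (median 6.77) in young and 7.07 to 7.39 (median 7.25) in impaired arrays, and rose by 0.50 ± 0.07 (limma, adjusted p = 0.000572). Of 31 other antioxidant genes only Nfe2l2 was called, 3.23% of the list. It encodes the stress regulator Nrf2 itself. Nfe2l2 rose by 0.33 ± 0.08, and its call was lost in 4 of the 17 fits with an array left out (adjusted p up to 0.0554).

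The promoters of Gstp1, Pir and Ctsd are shown because Gstp1 and Pir were among the 10 smallest p-values and Ctsd among the called lysosomal hydrolases, and because all 3 hold matches to the motifs below, so they are examples picked for their matches. Nrf2 binds antioxidant response elements, searched here as TGACNNNGC, and lysosomal regulators bind the E-box core CACGTG. The TATA box TATAAA and the NF-Y box CCAAT were searched as well, all on both strands. Each window runs 5′ to 3′ on the gene's strand from 250 bases before to 50 bases after its start in RefSeq, build GRCr8, and all 3 genes lie on the minus strand. Their windows are chr1:210769656-210769955 for Gstp1, chrX:33851000-33851299 for Pir and chr1:206968772-206969071 for Ctsd. Capitals mark every match to these 4 motifs.
Gstp1: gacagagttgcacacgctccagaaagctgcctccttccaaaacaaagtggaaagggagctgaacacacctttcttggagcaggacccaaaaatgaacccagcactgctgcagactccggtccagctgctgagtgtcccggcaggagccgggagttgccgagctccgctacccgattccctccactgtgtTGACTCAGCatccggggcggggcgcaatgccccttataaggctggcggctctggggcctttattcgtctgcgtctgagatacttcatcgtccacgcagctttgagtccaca
Pir: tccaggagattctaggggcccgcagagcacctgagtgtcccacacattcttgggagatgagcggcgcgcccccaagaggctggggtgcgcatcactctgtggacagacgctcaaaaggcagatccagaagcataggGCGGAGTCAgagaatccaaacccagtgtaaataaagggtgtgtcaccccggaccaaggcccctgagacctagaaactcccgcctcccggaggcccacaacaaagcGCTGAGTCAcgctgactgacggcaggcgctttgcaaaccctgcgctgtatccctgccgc
Ctsd: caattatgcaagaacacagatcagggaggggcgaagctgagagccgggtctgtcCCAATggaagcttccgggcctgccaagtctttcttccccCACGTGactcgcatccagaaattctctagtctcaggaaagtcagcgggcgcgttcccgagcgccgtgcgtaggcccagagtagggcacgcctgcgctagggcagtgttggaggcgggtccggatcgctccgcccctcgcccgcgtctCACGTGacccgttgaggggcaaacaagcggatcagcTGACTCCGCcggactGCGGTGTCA
Gstp1 held 1 antioxidant response element, at bases 190 to 198 of its window. Pir held 2, at bases 137 to 145 and 242 to 250. Ctsd held 2 E-box cores, at bases 94 to 99 and 241 to 246, besides 2 antioxidant response elements and 1 NF-Y box. None of these matches overlapped another. Among tested genes with a single listed start, 7100 of 9046, the antioxidant response element occurred in 14.7% of windows. It occurred in 16% of the 150 windows of genes called higher, in 41.7% of 12 glutathione transferases and in 28% of 25 lysosomal hydrolases. The E-box core occurred in 10.1% of all windows, 10.7% of those called higher and 20% of the lysosomal hydrolases. The TATA box was in 6.0% of all and 11.3% of the higher windows, and the NF-Y box in 37.9% and 35.3%. These other motifs were also frequent in some lists. The TATA box was in 25% of the transferases and 8.0% of the hydrolases, and the NF-Y box in 50% and 52%. The E-box core was in 8.33% of the transferases. Of 24 windows of the other antioxidant genes, 25% held the antioxidant response element and 33.3% the TATA box. A match is a description of the letters and not a site of binding.

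**Figure D3:**
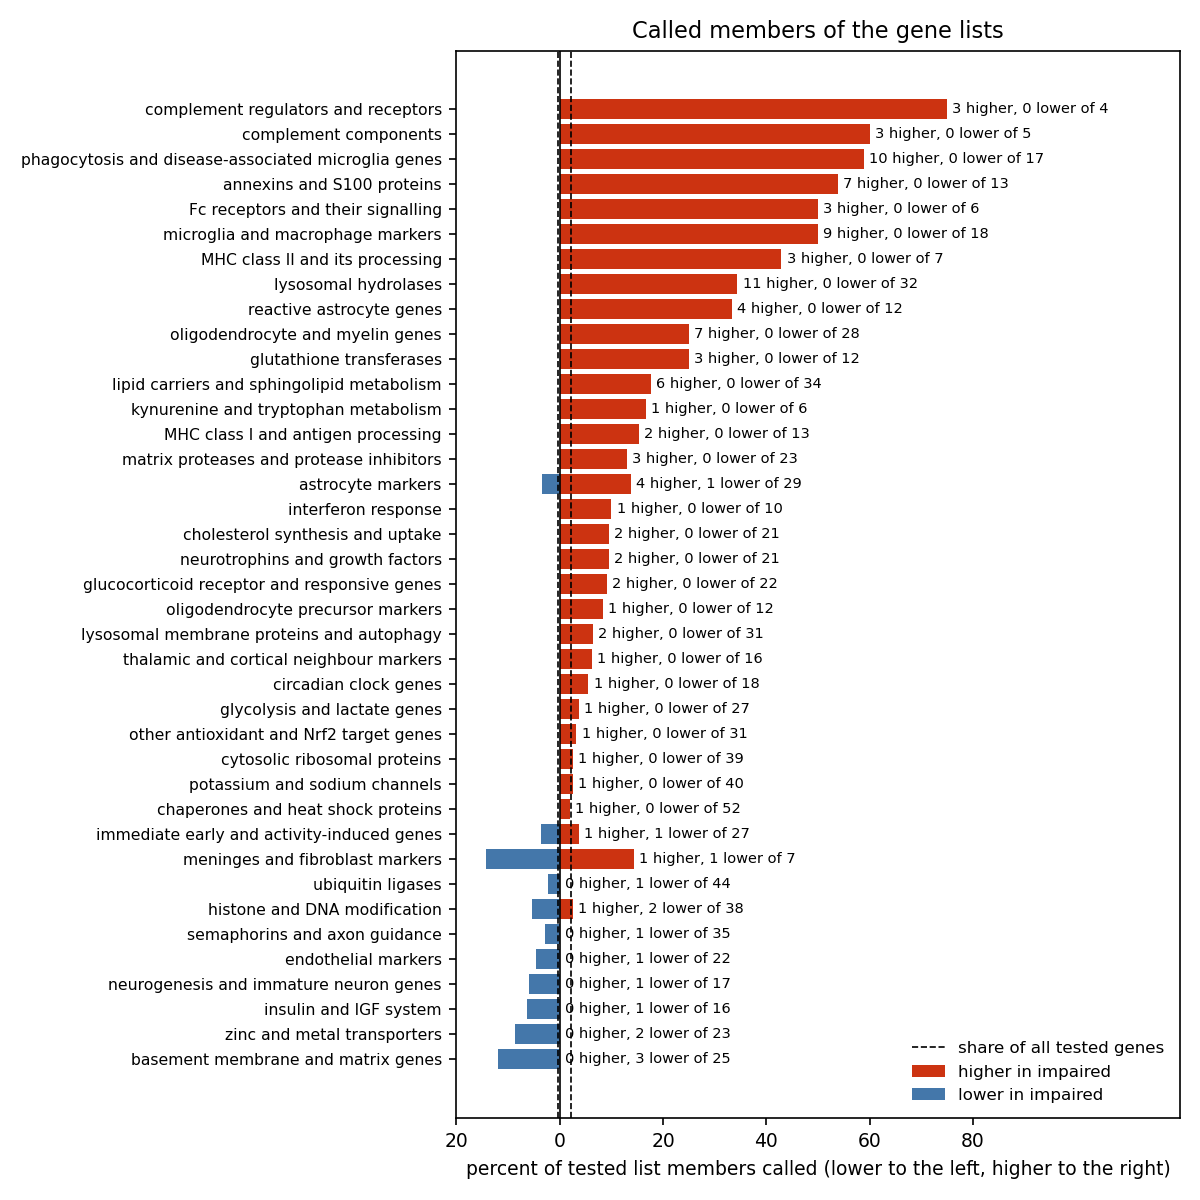
Percent of the tested members of each gene list called higher (red, to the right) or lower (blue, to the left) in aged impaired than in young arrays (x axis), for the lists with at least 1 call (y axis), with counts beside the bars. Dashed lines give the shares of all 9046 tested genes, 2.20% higher and 0.387% lower, and the complement, phagocytosis, annexin, microglial and Fc receptor lists reach 50% or more. The lists were chosen with earlier results of these data known.

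Several enzymes of lipid and amino acid metabolism were among the largest rises. Acer2, the ceramidase of the Golgi that turns ceramide into sphingosine, read 3.83 to 6.58 (median 4.69) in young arrays and 6.51 to 7.56 (median 6.91) in impaired arrays. Young replicate 5, at 6.58, reached into the impaired range, and the rise was 2.16 ± 0.29, or 4.47-fold (limma, adjusted p = 0.000689). Nat8f3, of the N-acetyltransferase 8 family, read 3.53 to 5.65 (median 5.53) in young and 6.67 to 8.73 (median 7.38) in impaired arrays, which did not overlap. Its rise was 2.31 ± 0.29, or 4.96-fold (limma, adjusted p = 0.000468), and whether its probes also read near copies of the family was not tested. Aadat, the aminotransferase that makes kynurenic acid, a blocker of glutamate receptors, was the only call among 6 kynurenine and tryptophan genes, 16.7% of them. It read 5.78 to 6.64 (median 6.11) in young and 6.82 to 7.40 (median 7.13) in impaired arrays, a rise of 1.0 ± 0.11 without overlap (limma, adjusted p = 7.22e-05). Cyp4f4, a fatty acid and eicosanoid hydroxylase, rose by 0.90 ± 0.19. Besides Acer2, 5 of 34 lipid carrier and sphingolipid genes rose, Abca8a, Apod, Asah1, Clu and Abca2, by 0.38, 0.40, 0.32, 0.22 and 0.21. Together with Acer2 they were 17.6% of the list, against 2.20% of all genes called higher. With 1 array left out the list had 3 to 6 rises, 3 of them without aged impaired replicate 4 or 5, and Abca2 lost its call in 13 of those fits. Asah1, the lysosomal ceramidase, lost its call without aged impaired replicate 4 or 5 (adjusted p up to 0.0505). The second probe set of Asah1 differed by 0.14 and did not pass (limma over 16135 probe sets, adjusted p = 0.293). Srebf1, a regulator of lipid synthesis, rose by 0.44 ± 0.06 without overlap between the groups. It and Fdft1, squalene synthase, were the calls among 21 cholesterol genes, 9.52% of them. The call of Fdft1 was lost in 12 of the fits with an array left out and under both other scalings. The second probe set of Fdft1 was at 0.02.

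Reactive astrocyte genes gave 4 rises among 12, 33.3% against 2.20% of all genes, of which C3 and Serping1 are also complement genes. Gfap, the intermediate filament of astrocytes, read 12.32 to 12.66 (median 12.54) in young arrays and 12.65 to 13.26 (median 13.13) in impaired arrays, with only replicate 1 in the young range. It rose by 0.56 ± 0.08, or 1.47-fold (limma, adjusted p = 0.000698), and Vim, a partner filament, rose by 0.53 ± 0.11. General astrocyte markers gave 4 rises and 1 fall among 29, with a median of 0.097. The rises were 13.8% and the fall 3.45% of the list, against 2.20% and 0.387% of all genes. The urea channel Slc14a1 rose by 0.59 ± 0.12, angiotensinogen (Agt) by 0.26 ± 0.06 and S100b by 0.17 ± 0.04, while the thyroid hormone transporter Slco1c1 fell by 0.45 ± 0.10. Aqp4, the water channel of astrocyte endfeet, and the glutamate transporter Slc1a3 differed by 0.14 and 0.03 and did not pass. Annexins and S100 proteins, which bind calcium and, for annexins, membranes, gave 7 rises among 13, 53.8% against 2.20% of all genes, and no fall, with a median of 0.21. Anxa4 rose most, from dim signals of 3.15 to 4.17 (median 3.60) in young arrays to 3.85 to 5.50 (median 4.89) in impaired arrays, a difference of 1.13 ± 0.18 (limma, adjusted p = 0.00206). Anxa4 passed the signal filter only with impaired arrays counted. Anxa3 and Anxa5 rose by 0.44 ± 0.07 and 0.41 ± 0.08. A second, dim probe set of Anxa3 differed by 0.21 and did not pass (limma over 16135 probe sets, adjusted p = 0.178).

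Of 28 oligodendrocyte and myelin genes 7 rose and none fell, 25% against 2.20% of all genes called higher, and the median of the list was 0.15. Qdpr, an enzyme that regenerates tetrahydrobiopterin and is abundant in oligodendrocytes, read 11.62 to 12.12 (median 11.96) in young and 12.25 to 12.54 (median 12.40) in impaired arrays. It rose by 0.47 ± 0.07 without overlap (limma, adjusted p = 0.000698). Plekhb1 rose by 0.32 ± 0.06, also without overlap, and Bcas1, a gene of newly myelinating cells, by 0.34 ± 0.07. The structural myelin genes Mbp and Mog differed by 0.03 ± 0.04 and 0.09, and neither passed. Sgk1, a kinase induced by glucocorticoids that is also in this list, rose by 0.81 ± 0.21, with its call lost in 13 of the 17 fits with an array left out. Ndrg1 and Sox10, called at 0.27 and 0.21, lost theirs in 10 and 15, and the list then had 4 to 8 rises, 4 of them without young replicate 2, 6 or 7 or aged impaired replicate 3 or 6. Sox10 was the only call among 12 oligodendrocyte precursor genes, 8.33% of them, and it was not called with centred or quantile normalized arrays.

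Further rises came from secreted and stress-related proteins. Ccn2, connective tissue growth factor, read 6.29 to 8.31 (median 7.73) in young arrays and 8.51 to 9.78 (median 9.32) in impaired arrays, which did not overlap. It rose by 1.78 ± 0.29, or 3.43-fold (limma, adjusted p = 0.00201). Ccn2 is also a marker of deep cortical cells next to the hippocampus. It was the only call among 16 markers of thalamus and cortex, whose median was -0.00066. That was 6.25% of the list, against 2.20% of all genes called higher. A2m, a broad protease inhibitor, read 6.25 to 7.21 (median 6.86) in young and 7.25 to 8.19 (median 7.83) in impaired arrays, and rose by 0.99 ± 0.15 (limma, adjusted p = 0.000974). Hspb8, a small heat shock protein, rose by 0.67 ± 0.14 and was the only call among 52 chaperones, of which 16 had a positive difference. That was 1.92% of the list, against 2.20% of all genes called higher. Klf15, a transcription factor induced by glucocorticoids, rose by 0.46 ± 0.08, while the glucocorticoid receptor Nr3c1 differed by -0.10 and did not pass. Bhlhe41, a repressor in the circadian clock, rose by 0.24 ± 0.05 and was the only call among 18 clock genes, 5.56% of them. Its call was lost without aged impaired replicate 4, 5 or 6 (adjusted p up to 0.053). Ptgds, prostaglandin D synthase, had the largest SD in impaired relative to young arrays among called genes. It read 11.42 to 11.56 (median 11.50) in young arrays and 11.66 to 12.99 (median 12.19) in impaired arrays, a rise of 0.69 ± 0.12 without overlap (limma, adjusted p = 0.00308). Ptgds is made in meninges as well as in oligodendrocytes. Of the other 6 meningeal genes tested none rose, Igf2 fell, as given with the falls, and Dcn, a small matrix proteoglycan, differed by -0.59 and did not pass (limma, adjusted p = 0.0881).

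Falls were fewer, and 2 of the 15 largest were basement membrane genes, Nid1 and Col4a5. Nid1, nidogen, which links laminin to collagen IV, read 6.32 to 7.29 (median 6.65) in young arrays and 5.68 to 5.98 (median 5.90) in impaired arrays. All impaired arrays lay below all young arrays and were close together, and the fall was -0.95 ± 0.12, or 1.93-fold (limma, adjusted p = 0.000468). Col4a5, a collagen IV chain, fell by 0.75 ± 0.17, from 6.50 to 7.09 (median 6.77) in young to 5.48 to 6.96 (median 5.86) in impaired arrays. Aged impaired replicates 3 and 7, at 6.51 and 6.96, lay within the young range, and the call was lost without aged impaired replicate 2 or 5 (adjusted p up to 0.0545). Col4a1, the most common collagen IV chain, was called at -0.39 ± 0.10, but its call was lost in 14 of the 17 fits with an array left out and its second probe set differed by 0.01. These were the 3 calls among 25 matrix genes, 12% against 0.387% of all genes called lower, with a list median of -0.11 and 5 members above 0. With 1 array left out, 1 to 4 of the list were called lower, with 1 left without aged impaired replicate 2 or 5, and without aged impaired replicate 1 and young replicate 9 it was 1. Endothelial markers gave 1 fall among 22, Slco1c1, 4.55% against 0.387% of all genes called lower. Their summed signal was 12710 to 15740 in young and 12080 to 14920 in impaired arrays. No pericyte gene among 11 passed, the nearest being Myh11 at -0.30 ± 0.09 (limma, adjusted p = 0.0867).

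Sema3c, a secreted guidance cue, fell by 1.67 ± 0.28, or 3.18-fold (limma, adjusted p = 0.00238). It read 6.13 to 7.75 (median 7.47) in young arrays and 4.25 to 6.49 (median 5.51) in impaired arrays, and 7 of 8 impaired arrays lay below all young arrays. It was the only call among 35 guidance genes, 2.86% against 0.387% of all genes called lower, with a list median of -0.057. Igf2, a growth factor made mostly in meninges and choroid plexus, read 6.71 to 8.40 (median 7.53) in young and 6.67 to 7.29 (median 6.87) in impaired arrays. Only 1 impaired array lay below all young arrays. The fall was -0.72 ± 0.18 (limma, adjusted p = 0.0337), it was lost in 9 of the 17 fits with an array left out, and a second, dim probe set differed by -0.06. Rnf6, a ubiquitin ligase, had the largest fall and the widest spread. It read 6.96 to 8.47 (median 8.15) in young arrays and 3.12 to 7.33 (median 6.50) in impaired arrays, with replicate 1 at 3.12 and the others from 5.12 upward. The difference was -1.87 ± 0.46 (limma, adjusted p = 0.0344), and this call was lost in 10 of the 17 fits with an array left out (adjusted p up to 0.0848). It was the only call among 44 ubiquitin ligases, 2.27% against 0.387% of all genes called lower.

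Among transcription and chromatin genes, Sox4, a factor of immature neurons and glia, fell by 0.44 ± 0.08 (limma, adjusted p = 0.00681). Its young arrays read 8.98 to 9.53 (median 9.18) and its impaired arrays 8.52 to 8.96 (median 8.72), without overlap. A second, dimmer probe set of Sox4 differed by -0.35 with overlap and did not pass (limma over 16135 probe sets, adjusted p = 0.279). The call was lost with the mean of the gene's probe sets. Sox4 was the only call among 17 genes of neurogenesis and immature neurons, 5.88% against 0.387% of all genes called lower. Of the 17, 5 had a positive difference, and the list median was -0.11. Bcl11a, a transcription factor named here after its values were seen, also did not overlap between the groups and fell by 0.19 ± 0.04. L3mbtl3 and Cdyl2, readers of methylated histones, were called at -0.62 and -0.49 and lost their calls in 6 and 13 of the fits with an array left out. Kif26b, an unusual kinesin, fell by 0.62 ± 0.09 (limma, adjusted p = 0.000698), with 7 of 8 impaired arrays below all young arrays, but its other probe sets differed by -0.14 and 0.0034. Zdbf2, an imprinted gene, fell by 0.46 ± 0.11, a call lost without aged impaired replicate 2, 3 or 5 (adjusted p up to 0.0563). Tmem163, a zinc transporter, and Slc39a10, a zinc importer, were called at -0.61 and -0.22 and lost their calls in 12 and 14 of those fits. Slc24a4, an exchanger of sodium, calcium and potassium, at -0.76, Dusp6, a phosphatase that switches off ERK, at -0.44, and Mpzl1, a cell surface glycoprotein, at -0.43, were likewise called in the full data and lost in 13, 13 and 14 of the fits.

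Among neuronal and synaptic lists few genes were called, as among all genes, of which 2.59% were. None passed among 11 CA1 pyramidal markers, 15 CA3 and CA2 markers, 9 dentate markers and 21 interneuron markers. None passed among 12 GABA receptor genes, 37 glutamate receptor and postsynaptic genes, 44 presynaptic genes and 46 calcium signalling genes. The medians of these 8 lists lay between -0.11 for CA1 markers and 0.012 for dentate markers. Of the 46 calcium signalling genes 10 had a positive difference (7 with centred arrays), with a median of -0.043. Over all tested genes 53.6% were positive. In fits with an array left out, at most 1 gene of a list passed in each direction. The CA1 list was the lowest, with 3 of 11 differences above 0 and a summed signal of 21210 to 27760 in young and 21510 to 24850 in impaired arrays. Its marker Wfs1 differed by -0.11 ± 0.12 and did not pass (limma, adjusted p = 0.76). Nearest to a call in the CA1 list were Etv1 and Dcn, at 0.19 and -0.59. Dcn is thus counted here as a CA1 marker and above as a meningeal gene. Gad1 and Gad2, which make GABA, differed by 0.09 ± 0.06 and -0.16 ± 0.24, and the interneuron peptides Sst and Npy by 0.04 ± 0.14 and -0.13 ± 0.13. Homer1, a postsynaptic scaffold, was nearest to a call among the glutamate genes, at -0.27 ± 0.08 (limma, adjusted p = 0.0955), and it passed with centred or quantile normalized arrays, with all 23 arrays in the fit and without young replicate 6 (adjusted p from 0.0359). Hcn2, a pacemaker channel, rose by 0.38 ± 0.09 as the only call among 40 listed potassium and sodium channels. That was 2.5% of the list, against 2.20% of all genes called higher. The Hcn2 call was lost in 7 of the fits with an array left out. The list leaves out the potassium channel Kcnj16, which rose by 0.87 without overlap between the groups (limma, adjusted p = 0.00182). Of 27 activity-induced genes, Gadd45b, a DNA repair and demethylation factor, rose by 0.57 ± 0.14 and Dusp6 was the fall named above. Each was 3.7% of the list, against 2.20% of all genes called higher and 0.387% called lower. The plasticity genes Arc, Egr1 and Bdnf differed by 0.08 ± 0.23, -0.06 ± 0.16 and -0.29 ± 0.21, and none passed.

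Energy and protein turnover genes shifted little. None of 66 oxidative phosphorylation genes and none of 36 proteasome genes passed, with medians of 0.027 and 0.014. Cytosolic ribosomal proteins were positive in all 39 tested genes, also with centred or quantile normalized arrays, but by a median of only 0.077 (0.058 centred). A single one, Rps6, was called, at 0.15 ± 0.04, which was 2.56% of the list against 2.20% of all genes called higher. The call of Rps6 was lost with either other scaling. Ldhb, a lactate dehydrogenase chain, rose by 0.16 ± 0.04 as the only call among 27 glycolysis genes, 3.7% of them. This call was lost in 4 of the fits with an array left out. None of 21 amyloid, tau and synuclein genes and none of 13 senescence genes passed.

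**Figure D4:**
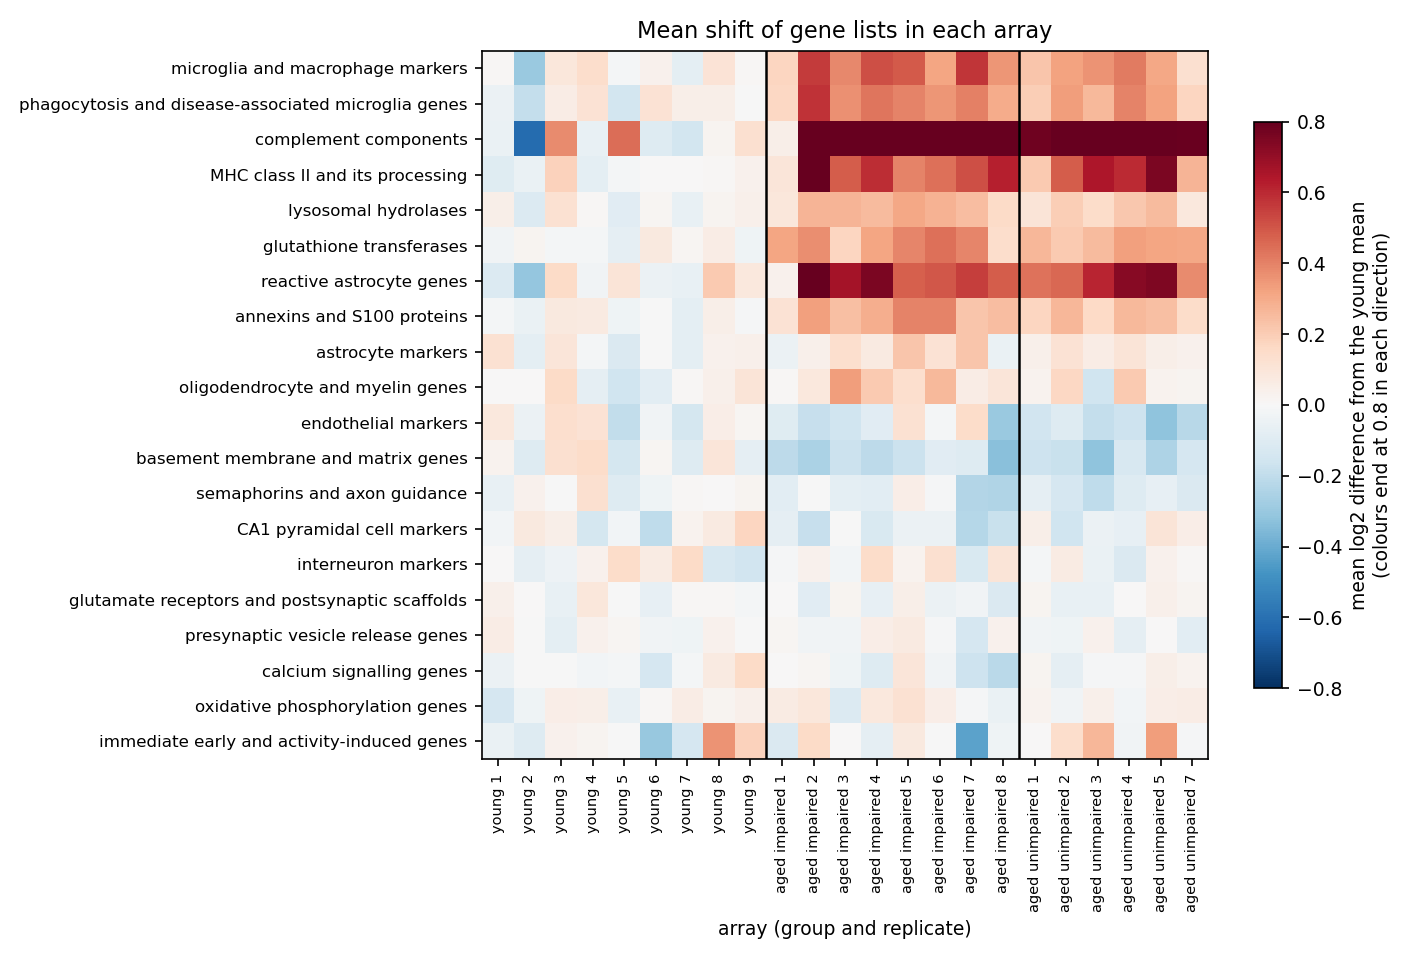
Mean log2 difference from the young mean (colour) of the tested members of 20 gene lists (y axis) in each of the 23 arrays (x axis), with black lines between young, aged impaired and aged unimpaired arrays. The microglial list is red in all impaired arrays, from 0.17 in replicate 1 to 0.57 in replicate 7.

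The impaired arrays varied in how far these groups moved. The mean shift of the microglial markers from the young mean was 0.17 in replicate 1 and 0.31 to 0.57 in the other 7, and all 8 lay above the young arrays, which spanned -0.30 to 0.14. For the complement components and the lysosomal hydrolases, replicate 1 lay within the young range and the other 7 above it. For the glutathione transferases all 8 impaired arrays, at 0.14 to 0.44, lay above the young arrays, at -0.071 to 0.078, and there replicate 8 was the lowest. Across the 199 higher genes as a whole, replicate 1 averaged 0.30 above the young mean and replicate 5 the most, 0.55. For the 35 lower genes replicates 8 and 1 moved farthest, at -0.62 and -0.60. These genes were chosen on the same arrays, so the shifts describe the arrays and test nothing.

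The aged unimpaired arrays were set beside the impaired ones to show where the impaired level stands. Both comparisons with young share the 9 young arrays, so each is given by its own values. In a fit of all 23 arrays, 67 genes, 0.741% of those tested, differed between unimpaired and young arrays. In the same fit 338 of the 9046 genes differed between impaired and young arrays. The groups had 6 unimpaired and 8 impaired arrays, so the counts were not reached with equal numbers. Cd74 differed from young by 3.13 in unimpaired and 2.89 in impaired arrays, C3 by 3.25 and 2.70, Mgst1 by 1.43 and 1.47, Aadat by 0.94 and 1.0, and Nid1 by -0.91 and -0.95. The direct difference of impaired minus unimpaired arrays was -0.24 ± 0.50 for Cd74 and -0.55 ± 0.43 for C3.

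Tested directly, no gene differed between impaired and unimpaired arrays in limma (0 of 9046, or 0%, smallest Benjamini-Hochberg adjusted p = 0.254), and 631 had an unadjusted p under 0.05, against 452.3 from chance. When the young arrays were left out of the fit, 1 gene passed, Inhba, the activin A subunit, lower in impaired arrays by a difference of -0.65 ± 0.09 (limma, adjusted p = 0.0413). The genes with the smallest p in each direction were Lgi3, Gstp1, Rbm3, Ggta1 and Tmem106c, higher in impaired arrays, and Ctxnd1, Rfxap, Kif26b, Gpr161 and Cdyl2, lower. Of these, Gstp1, Rbm3, Ggta1, Rfxap, Kif26b and Cdyl2 were also called against young. Gstp1 stood at 11.38 to 11.65 in impaired and 11.14 to 11.48 in unimpaired arrays, a difference of 0.23 ± 0.05. Rbm3, an RNA-binding protein induced by cold, read 10.81 to 11.53 (median 11.28) in impaired and 10.25 to 11 (median 10.66) in young arrays, a rise of 0.55 ± 0.10 against young (limma, adjusted p = 0.0071). Its unimpaired arrays, at 10.57 to 10.94, lay within the young range. Rfxap, a subunit of the complex that drives MHC class II genes, read 7.65 to 8.11 in impaired, 8.11 to 8.65 in young and 8.21 to 8.42 in unimpaired arrays, and fell against young by 0.39 ± 0.08 (limma, adjusted p = 0.0106). Dusp6, at -0.44 against young, differed from unimpaired arrays by -0.56 ± 0.13. None of these differences from unimpaired arrays passed the adjusted threshold.

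**Figure D5:**
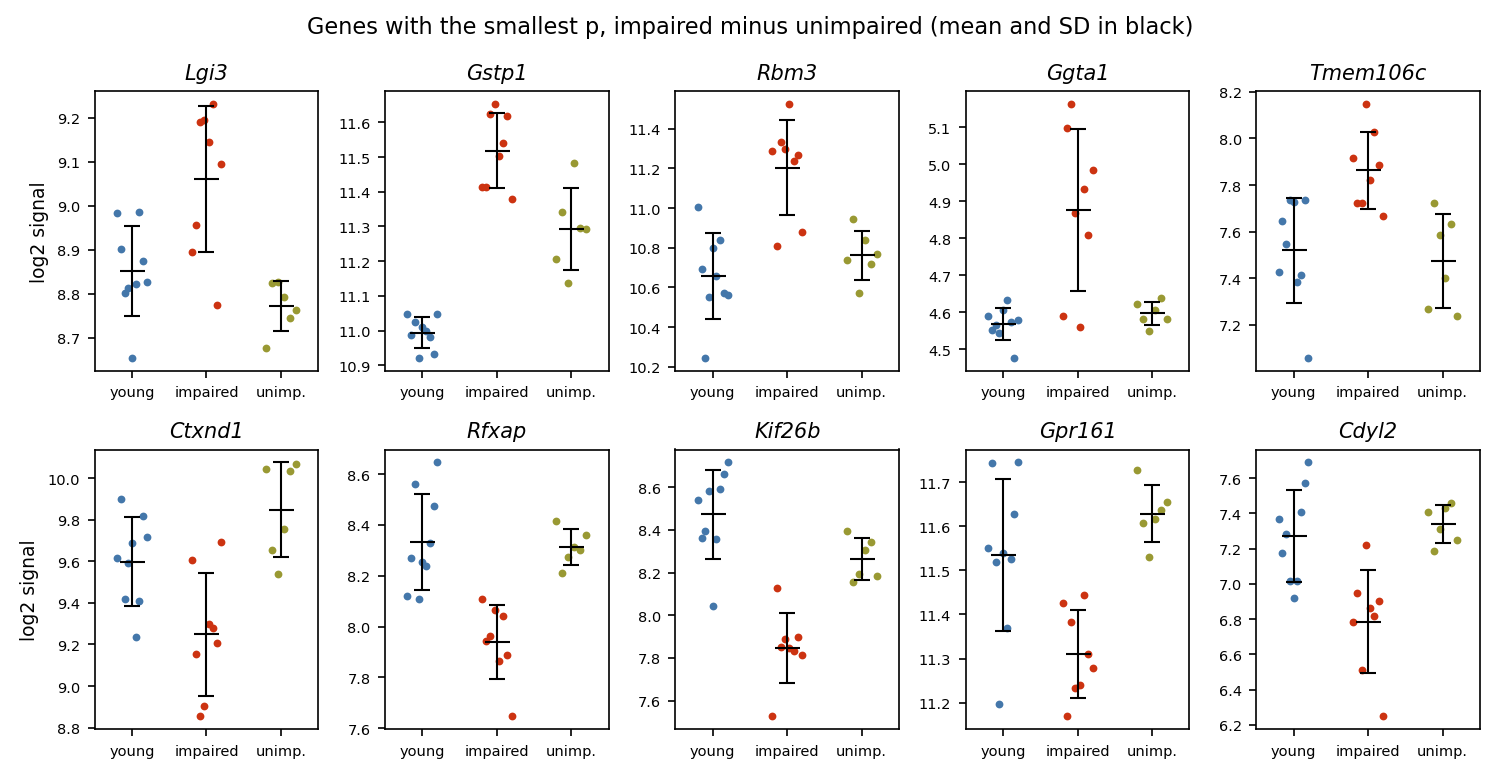
Log2 signal (y axis) of the 10 genes with the smallest p for impaired minus unimpaired arrays, 5 higher (top) and 5 lower (bottom), in young, aged impaired and aged unimpaired arrays (x axis), with points for arrays and the mean ± SD in black. The genes were chosen for this difference and none passed the adjusted test, with Gstp1 at 11.38 to 11.65 in impaired and 11.14 to 11.48 in unimpaired arrays.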

How the data were processed

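The 23 arrays with values were Affymetrix Rat Genome 230 2.0 arrays of CA1 RNA. The deposited log2 values had been made by the authors with GCRMA, per the submitters' processing notes, and its version is not given in the sources used here. GCRMA subtracts background by probe sequence and quantile normalizes arrays, which can hide shifts shared by all genes. Aged unimpaired replicate 8, which the labels say was left out at quality control, was not analysed here, and no sample used here is labelled aged unimpaired replicate 6. The deposited log2 values were used without further scaling.

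Of 31099 probe sets, 20832 had a single gene symbol in the platform annotation, 436 had several and 9831 had none, and 20764 matched a RefSeq gene ID. Symbols can be old, and levels of different probe sets are not comparable. Probe sets with a signal over 4 in at least 6 of the 17 arrays were kept, and each gene was read from the one with the highest mean. Impaired and young arrays were compared with limma 3.58.1 in R 4.3.3 (lmFit and eBayes) on these 17 arrays, and p-values were adjusted by Benjamini-Hochberg over all 9046 genes. A gene was called at an adjusted p under 0.05, and errors of differences are standard errors of the fit. Comparisons with unimpaired arrays came from a fit of all 23 arrays. The labels describe the arrays as biological replicates, so p-values measure the spread between rats as far as that holds, and the number of arrays limits the precision. Measures of RNA quality were compared by exact permutation tests (Python 3.11.15, scipy 1.17.1), and figures were drawn with matplotlib 3.10.9. The fit was tested on simulated data.

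The genes named in full were the 15 largest rises, the 15 largest falls and the 10 smallest p-values among called genes. Added to them were called members of 57 gene lists (up to the 6 with the smallest p, or the 2 nearest where none passed), the 5 smallest p-values in each direction between impaired and unimpaired arrays, the 5 called genes most variable in impaired relative to young arrays, and a panel of well-known genes. Other genes were named after their values were seen, among them RT1-Db1, RT1-DMa, RT1-DMb, Csf1r, P2ry12, Tmem119, Cd3e, Mog, Aqp4, Slc1a3, Inhba and Bcl11a. The members and lists were chosen with earlier results of these data known. Alternatives covered the arrays in the fit, the filter, the probe set rule, scaling, array weights, moderation, an RNA quality covariate, a replicate block, thresholds and each array left out. Promoters came from RefSeq.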

Additional observations from a re-analysis of the deposited data

Results flagged for a closer look

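In 28 of 294 sets of arrays tested, each 1 gene or 1 array-wide measure in 1 group, a single array stood far from the others (9.52%). Chance alone does so in about 1 in 20, and the genes are not independent.

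Among young arrays, the array farthest from the rest was Aadat in replicate 7 at 6.6354, L3mbtl3 in replicate 5 at 5.4959, Tmem163 in replicate 8 at 6.2419, Cd53 in replicate 2 at 5.8141, Tyrobp in replicate 2 at 3.8986, Clu in replicate 7 at 13.144 and Rela in replicate 2 at 5.1832, in log2 signal. The others were Apod in replicate 3 at 11.628, Ndrg1 in replicate 5 at 9.7905, Cacng3 in replicate 5 at 9.892, Gadd45b in replicate 7 at 4.6277, Hspb8 in replicate 4 at 6.0702, Cdk5r1 in replicate 5 at 9.0982, Npy in replicate 5 at 9.4695 and Nr3c1 in replicate 5 at 9.3341. Young replicate 5 was the array picked out most often.

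Among aged impaired arrays, it was Cd74 in replicate 1 at 4.7921, C3 in replicate 1 at 4.8783, Cd59b in replicate 5 at 11.331, Cd2 in replicate 5 at 4.3389, Col4a1 in replicate 6 at 7.5566 and Ptgds in replicate 2 at 12.986, in log2 signal. The others were Etv1 in replicate 5 at 11.377, Rfx3 in replicate 8 at 7.7949, Abat in replicate 4 at 7.232, Ttr in replicate 6 at 9.4995, Bdnf in replicate 7 at 5.9597, Egr1 in replicate 7 at 10.118 and Calb1 in replicate 4 at 11.729. For Cd74 and C3, replicate 1 was the impaired array that lay among the young arrays.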

How the results depend on the processing

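The count of 199 higher genes moved by more than 1.5 times only with the replicate block (51), with stricter or looser adjusted p thresholds of 0.01 (76) and 0.10 (310), and with arrays left out, where it ranged from 123 to 262. The count of 35 lower genes was less stable. It was 64 with all 23 arrays in the fit, 14 without a filter on dim probe sets, 85 with centred arrays, 71 with quantile normalization, 14 without moderation, 4 with the replicate block, 7 and 75 at adjusted p thresholds of 0.01 and 0.10, and 15 without both aged impaired replicate 1 and young replicate 9, an alternative chosen after seeing the data. With arrays left out it ranged from 18 to 47. Rises made up 85% of calls in the main setting, 70.5% with centred and 76.2% with quantile normalized arrays. The other settings stayed within 1.5 times of both counts, among them array weights (232 and 42), trend and robust moderation (214 and 41), the RNA quality covariate (247 and 43) and the mean of a gene's probe sets (186 and 33). The replicate numbers did not pair the arrays, since deviations of same-numbered arrays correlated at -0.277 to 0.00699 and 0 of 8 correlated best with its own number, so calls lost under the block are not read as weaker effects. Between impaired and unimpaired arrays 1 gene was called when the young arrays were left out and 0 otherwise, also with centred arrays, quantile normalization, array weights and trend and robust moderation. These alternatives were added after seeing the data. Of 143 named genes, none of the called ones changed sign in any setting run, while 6 that were not called did in at least 1 setting, namely Arc, Calb1, Cd2, Egr1, Sst and Ttr. Signals near the dim limit of 4, as for Cd74 and Fcgr2b in young arrays, leave the size of those rises less certain than their direction.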

Other observations

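Several large rises lay outside the gene lists and were picked after their values were seen. Mpeg1, the pore-forming protein of macrophages, read 9.22 to 10.01 (median 9.87) in young and 10.11 to 10.88 (median 10.47) in impaired arrays, a rise of 0.84 ± 0.12 without overlap (limma, Benjamini-Hochberg adjusted p = 0.000698). Cd302, a C-type lectin receptor of phagocytes, read 8.92 to 9.99 (median 9.50) in young and 10.28 to 10.45 (median 10.38) in impaired arrays and rose by 0.89 ± 0.14 (limma, adjusted p = 0.00206). Kcnj16, an inwardly rectifying potassium channel, rose by 0.87 ± 0.14, from 4.15 to 5.15 in young to 5.16 to 5.92 in impaired arrays. Hapln2, a link protein at nodes of Ranvier, rose by 0.66 ± 0.09, and its impaired arrays, at 8.48 to 9.13, overlapped the young arrays, at 7.84 to 8.50. Chi3l1, a chitinase-like protein secreted by astrocytes and macrophages, rose by 0.48 ± 0.07, and Bmp6, a bone morphogenetic protein, by 0.53 ± 0.09.

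Of the genes not called, 3 differed by more than 2-fold, Ptk2b, Bhlhe40 and Plac9. Ptk2b, a calcium-activated tyrosine kinase, spanned 6.30 to 11.23 (median 9.68) in impaired and 9.93 to 10.88 (median 10.64) in young arrays, a difference of -1.18 ± 0.59 (limma, adjusted p = 0.372). Bhlhe40, a clock repressor, differed by 1.01 ± 0.50 (limma, adjusted p = 0.369), with one young array at 3.32 and a young median of 7.43. Plac9, a small secreted protein, differed by -1.03 ± 0.35 (limma, adjusted p = 0.146). Below 2-fold, a Homer1 probe set other than the brightest differed by -0.93 ± 0.29 (limma over 16135 probe sets, adjusted p = 0.133).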
